A study of Rattus norvegicus with 23 samples.

Results

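Semaphorins, plexins and neuropilins were followed through hearts of newborn rats exposed *in utero* to maternal diabetes, to a maternal high-fat (HF) diet or to both. The members were all genes whose array probe sets carried a single symbol that starts with Sema and a digit or with Plxn, together with *Nrp1* and *Nrp2*. This rule found 23 of the 14506 singly named genes, on 24 of 29170 probe sets. *Sema4c* had 2 probe sets, which were averaged in each heart. The members were 6 secreted class 3 semaphorins (*Sema3a*, *Sema3b*, *Sema3c*, *Sema3d*, *Sema3e* and *Sema3f*), 10 semaphorins of classes 4 to 7 (*Sema4a*, *Sema4c*, *Sema4f*, *Sema4g*, *Sema5a*, *Sema5b*, *Sema6b*, *Sema6c*, *Sema6d* and *Sema7a*), 5 plexins (*Plxna2*, *Plxna3*, *Plxnb2*, *Plxnb3* and *Plxnd1*) and both neuropilins.

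The hearts came from offspring of Sprague Dawley dams, on postnatal day 1. Dams were fed the control or the HF diet through pregnancy and for 28 days or more ahead of mating. On gestational day 14 they were injected with citrate buffer or with 65 mg/kg of streptozotocin, a toxin of pancreatic beta cells, and the high glucose that followed was partly controlled with insulin. Control hearts (n = 7) had buffer and control diet, diabetes exposed hearts (n = 6) streptozotocin and control diet, HF diet exposed hearts (n = 5) buffer and HF diet, and combination exposed hearts (n = 5) streptozotocin and HF diet. All pups were delivered on gestational day 22. Each group held hearts of both sexes, and the sources used here do not say which heart is which. Whole hearts were measured, so fewer cells of a type and less RNA per cell cannot be told apart. The 23 hearts have 19 code stems in the labels, 3 of which are shared by 7 hearts: HF diet hearts 3, 4 and 5 have 1 stem, combination hearts 1 and 2 have another, and so do combination hearts 4 and 5. The labels do not say what the stem stands for. If hearts on 1 stem are littermates they are not independent, and the p-values cover only the variation among these hearts.

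Semaphorins are cell-surface or secreted cues that bind plexins, and class 3 members mostly need a neuropilin as co-receptor. Plexins act on small GTPases and the cytoskeleton, and the outcome is usually that the receiving cell withdraws, turns or loses adhesion. In the heart the family is best known for the outflow tract, where *Sema3c* acts on cushion and neural crest cells through neuropilins and *Plxnd1*, for vessel patterning by *Sema3e* and *Plxnd1*, and for sympathetic innervation, which *Sema3a* restrains.

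Values are log2 intensities with the median of each probe set over the 23 arrays at 0, so a value says how far a heart lies from the median heart. The level of a gene cannot be read from them, and the tissue label could not be checked by the level of heart muscle genes. Of all arrays, combination heart 1 had the widest spread over probe sets (SD 0.393, lowest array 0.16). Control heart 1 stood apart in markers of other tissues. Its mean over 10 thymocyte and T cell markers was 3.31, against -0.115 to 0.185 in the other 22 hearts, and its mean over 9 lung epithelium markers was 2.80, against -0.23 to 0.717. In the combination group a list of chromatin regulators with long transcripts (18 of 31 measured) had means of -0.727, -0.25, -0.265, 0.004 and -0.124 in hearts 1 to 5. It was used as an axis of RNA or array quality, an assumption that was not tested. A list of erythroid genes (14 of 24 measured) had 0.307, 1.258, 0.376, -0.088 and -0.394 in the same hearts. Member differences that passed the threshold set out next, and that rest on these hearts, are given with and without them.

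A member was counted as past the threshold when its log2 difference went beyond 0.32 in either direction, the fold limit of the study's methods, with an unadjusted limma p under 0.05. In every comparison 0% of the 28366 features tested (genes and unnamed probe sets) had a Benjamini-Hochberg adjusted p under 0.05 by limma, and 0 passed by the methods' t-test in any of the 6 pairwise comparisons. No member therefore passed after adjustment. At an unadjusted limma p under 0.05, with no fold limit, diabetes against control had 0 of the 23 members, where 1.6% of all features passed, and HF diet against control had 1, where 2.69% did. Combination against control had 5 (9.85% of all features), combination against diabetes 4 (9.4%) and combination against HF diet 7 (13.3%). Diabetes against HF diet had 1 (2.15%) and the interaction 3 (6.53%). The 3 comparisons with control share the same 7 control hearts.

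Promoters are shown for 4 of the 6 members whose values are given heart by heart in the paragraphs that follow: *Sema7a*, which was lower with the HF diet, *Nrp2* and *Plxnd1*, which were lower with the combination, and *Sema6d*, which differed in the interaction. *Sema3a* and *Sema5a* had no entry. Each is the 250 bases before 1 annotated start in the RefSeq annotation of build GRCr8, 5′ to 3′ on the strand of the gene. The *Sema7a* window ends just before the annotated gene. The *Nrp2*, *Plxnd1* and *Sema6d* windows lie inside the annotated span of their gene, before an internal start. Capitals mark GCGTG or its reverse complement CACGC, 1 form of the core that hypoxia-inducible factors and other bHLH-PAS proteins bind. The other form of the hypoxia core, ACGTG, is in none of the 4 windows shown, on either strand.
*Sema7a*, chr8:67244068-67244317, plus strand: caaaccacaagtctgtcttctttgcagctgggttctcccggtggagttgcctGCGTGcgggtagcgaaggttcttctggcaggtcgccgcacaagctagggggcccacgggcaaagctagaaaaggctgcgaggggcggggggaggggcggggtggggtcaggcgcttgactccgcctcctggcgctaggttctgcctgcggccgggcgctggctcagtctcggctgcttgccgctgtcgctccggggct
*Nrp2*, chr9:71617004-71617253, plus strand: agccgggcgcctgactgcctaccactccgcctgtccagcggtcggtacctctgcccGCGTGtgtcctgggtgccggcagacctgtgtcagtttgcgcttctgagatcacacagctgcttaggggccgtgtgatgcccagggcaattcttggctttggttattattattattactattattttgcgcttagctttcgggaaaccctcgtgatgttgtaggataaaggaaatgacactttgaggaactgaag
*Plxnd1*, chr4:150715188-150715437, minus strand: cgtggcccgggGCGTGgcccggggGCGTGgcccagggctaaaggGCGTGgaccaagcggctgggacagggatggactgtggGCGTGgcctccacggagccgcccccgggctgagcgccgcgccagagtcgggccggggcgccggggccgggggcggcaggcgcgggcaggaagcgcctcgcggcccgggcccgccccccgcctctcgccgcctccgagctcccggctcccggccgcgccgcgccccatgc
*Sema6d*, chr3:132337106-132337355, plus strand: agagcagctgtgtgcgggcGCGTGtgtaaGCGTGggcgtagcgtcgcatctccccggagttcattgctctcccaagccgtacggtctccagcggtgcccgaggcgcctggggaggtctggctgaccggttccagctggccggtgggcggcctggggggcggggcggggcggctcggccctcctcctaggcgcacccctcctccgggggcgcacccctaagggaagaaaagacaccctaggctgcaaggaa
The motif is present 1 time in *Sema7a* and *Nrp2*, 2 times in *Sema6d* and 4 times in *Plxnd1*. Of 18 members with an entry, 7 hold it on either strand in these 250 bases, against 25.9% of all 33469 promoters in the table. The *Plxnd1* window is 83.2% G or C, that of *Sema6d* 70.4%, that of *Sema7a* 67.6% and that of *Nrp2* 52.8%, against a median of 51.2%. The GC box core GGGCGG (or CCGCCC) is in 9 of the 18, *Plxnd1*, *Sema6d* and *Sema7a* among them, and in 30.5% of all promoters. Of the other letters searched on both strands, CCAAT is in 5 of 18 members (34.0% of all), ACGTG in 3 (16.6% of all) and TATAAA in none (12.9% of all). These motifs can overlap one another in part. A match is a description of the letters in this window.

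*Sema7a* was the one member past the threshold in HF diet exposed hearts. It encodes a semaphorin held at the membrane by a lipid anchor, which binds integrin beta 1 and plexin C1 and acts on immune cells, axons and fibrosis. Control hearts had *Sema7a* values of -0.069 at the lowest, 0.208 at the median and 0.302 at the highest. HF diet exposed hearts 1 to 5 had -0.227, -0.187, -0.74, -0.119 and -0.209. Every HF diet exposed heart lay below every control heart. The difference in log2 value was -0.45 (SE 0.14), 1.37-fold lower, with an exact two-sided permutation p of 0.00253 and a limma adjusted p of 1. Of all features, 0.254% were lower and 0.702% higher past the threshold in this comparison, and 0.127% had groups that did not overlap. Among the 23 members 1 was lower, 0 were higher and 1 had groups that did not overlap.

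The *Sema7a* call was kept in all 23 fits that left out 1 heart, with values from -0.49 to -0.34. It was also kept under all 9 other settings, from -0.47 to -0.37. Fits that left out a diabetes or combination heart could not move this difference and changed only the estimate of its spread. Keeping probe sets separate left the *Sema7a* values as they were. The value nearest 0 came without HF diet heart 3, and without control heart 1 the difference was -0.43. HF diet hearts 3, 4 and 5 share a stem, and averaging hearts by stem left 3 HF diet values and a difference of -0.41. In diabetes exposed hearts *Sema7a* ranged from -0.394 to 0.539 around a median of 0.085, which overlapped all other groups. Combination exposed hearts 1 to 5 had *Sema7a* values of 0.037, 0.251, 0.474, -0.283 and -0.06.

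*Sema7a* was higher past the threshold in both streptozotocin groups than in HF diet exposed hearts. The difference was 0.36 (SE 0.15) for diabetes minus HF diet, where 0.229% of all features were higher and 0.208% lower, and 0.38 (SE 0.15) for combination minus HF diet, with limma adjusted p of 1 and 0.369. Both comparisons share the 5 HF diet hearts with the comparison against control. The first call was lost without diabetes heart 5 (0.27) or HF diet heart 3 (0.25), and the second without HF diet heart 3 (0.27), combination heart 2 (0.34) or combination heart 3 (0.28). The second was also lost under array weights (0.27) and with the erythroid (0.31) or the long-transcript mean (0.22) as a covariate, the first under array weights (0.32), with averaged stems (0.32) and with the erythroid covariate (0.30), and both under the methods' t-test. Of 8 epicardial markers 6 were measured. Past the threshold were 0 in HF diet against control, 0 in diabetes against HF diet and 1 in combination against HF diet (*Upk1b*, 0.44, SE 0.21). Their mean ran from -0.146 to 0.73 in controls, from -0.097 to 0.175 in diabetes exposed, from -0.288 to 0.034 in HF diet exposed and from 0.009 to 0.28 in combination exposed hearts, with control heart 3 the highest, and the part of these cells in the *Sema7a* result was not tested.

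**Figure D1:**
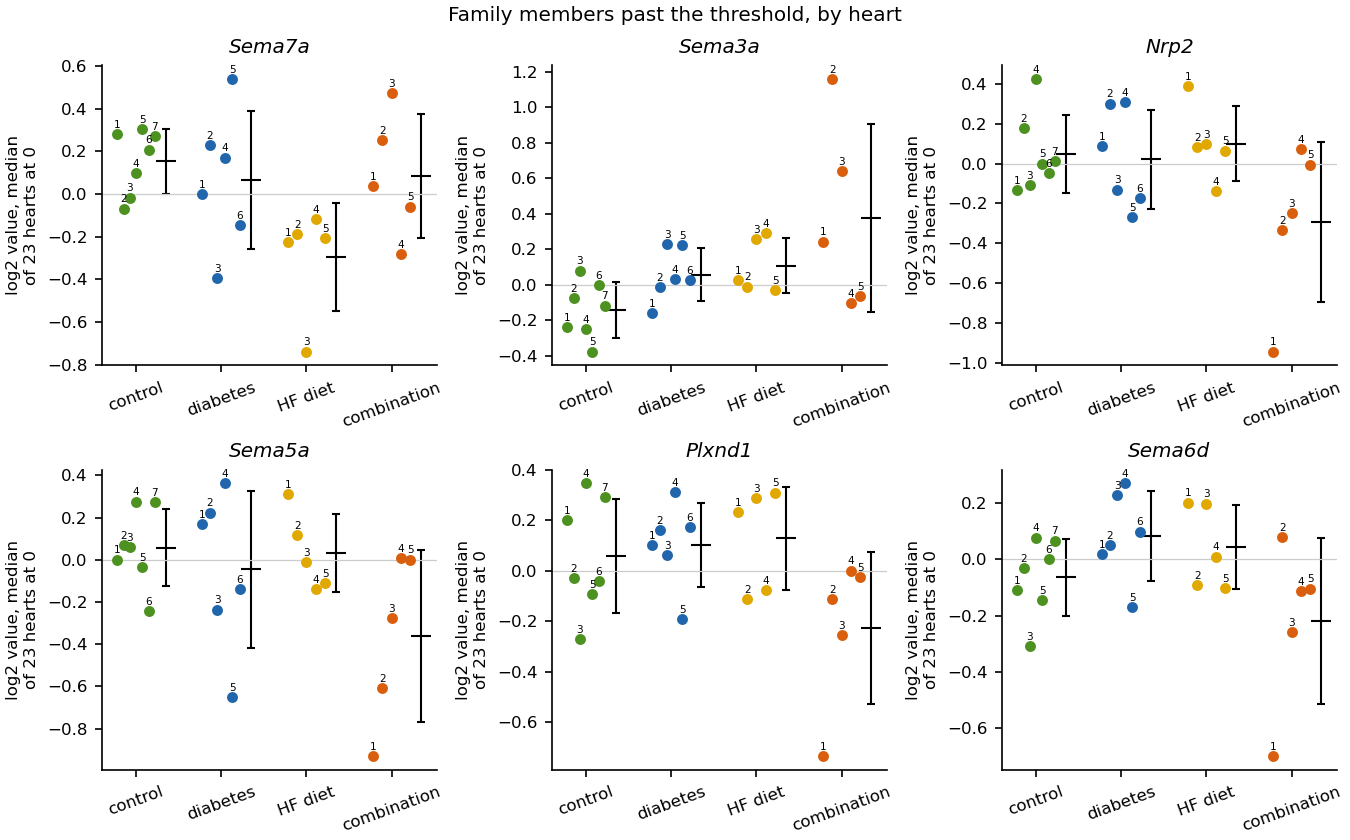
Log2 value (y axis, median of the 23 hearts at 0) of the 6 members past the threshold in any comparison, by exposure group (x axis). Points are hearts, numbered by replicate, and bars are the mean ± SD. All 5 HF diet exposed hearts lie below the controls for *Sema7a*, and combination heart 1 is the lowest of all 23 for *Nrp2*, *Sema5a*, *Plxnd1* and *Sema6d*.

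Combination exposed hearts had 3 members past the threshold against control. *Sema3a* was 1.43-fold higher, *Sema5a* 1.34-fold lower and *Nrp2* 1.27-fold lower. The study's own list for this comparison does not name any of the 3. Of all features, 2.11% were higher and 1.23% lower past the threshold here and among the 23 members 1 was higher and 2 were lower. Without combination heart 1 there was 1 in all, and without combination heart 2 there were 0. No member had groups that did not overlap, which 0.201% of all features did. The median difference of the 23 members was -0.07 on the log2 scale, with 6 positive and 17 negative, against 0.00 for all features (14227 positive and 14139 negative).

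*Sema3a* encodes the secreted ligand of neuropilin 1 and class A plexins that repels sympathetic axons. Combination exposed hearts 1 to 5 had *Sema3a* values of 0.244, 1.16, 0.639, -0.102 and -0.064. Control hearts ranged from -0.376 to 0.081 around a median of -0.117. Combination hearts 1, 2 and 3 were above every control heart, and hearts 4 and 5 were inside the control range. Hearts 1 and 2 share a stem, and so do hearts 4 and 5. The difference was 0.51 (SE 0.15; limma adjusted p 0.497, exact two-sided permutation p 0.0152). The call was lost without combination heart 2 (0.32), under the methods' t-test, and once the erythroid mean entered as a covariate (0.31). Combination heart 2 also had the highest erythroid mean of its group, 1.258, and the part of erythroid cells in the *Sema3a* difference was not tested beyond that covariate.

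*Sema3a* also had positive differences below the fold limit in the other exposures. Diabetes exposed hearts ranged from -0.16 to 0.23 around 0.03, and HF diet exposed hearts 1 to 5 had 0.026, -0.009, 0.258, 0.292 and -0.031. The differences from control were 0.20 (SE 0.15, exact two-sided permutation p 0.0455) and 0.25 (SE 0.15, exact two-sided permutation p 0.029), each with a limma adjusted p of 1. All 3 exposures are set against the same 7 control hearts, which hold the lowest *Sema3a* values of the series. In both groups some hearts overlapped the controls.

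*Sema5a* encodes a transmembrane semaphorin with thrombospondin repeats and a ligand of plexin B3. Combination exposed hearts 1 to 5 had *Sema5a* values of -0.93, -0.61, -0.277, 0.007 and 0.001, and control hearts ranged from -0.244 to 0.275 around 0.06. Combination hearts 1, 2 and 3 were below every control heart, and hearts 4 and 5 were inside the control range. The difference was -0.42 (SE 0.16; limma adjusted p 0.497, exact two-sided permutation p 0.024). It was lost without combination heart 1 (-0.28) or combination heart 2 (-0.36), under array weights (-0.29) and the methods' t-test, and with the erythroid (-0.29) or the long-transcript mean (-0.20) as a covariate. Outside the combination group the lowest *Sema5a* value was -0.652, in diabetes heart 5.

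*Nrp2* encodes neuropilin 2, the co-receptor of *Sema3f* and of lymphatic growth factors of the VEGF family. Combination exposed hearts 1 to 5 had *Nrp2* values of -0.945, -0.335, -0.248, 0.074 and -0.005, and control hearts ranged from -0.132 to 0.426 around 0. The same 3 combination hearts were below every control heart. The difference was -0.34 (SE 0.15; limma adjusted p 0.499, exact two-sided permutation p 0.0556), and the groups overlapped. It was lost without control heart 2 (-0.32), control heart 4 (-0.28), combination heart 1 (-0.18) or combination heart 2 (-0.33), and under the methods' t-test, quantile normalization (-0.27), array weights (-0.21) and either covariate (-0.23 for the erythroid and -0.14 for the long-transcript mean).

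Against the other exposures *Plxnd1* joined these genes. *Plxnd1* encodes the endothelial plexin D1, receptor of *Sema3e* and, with neuropilins, of *Sema3c*. Combination exposed hearts 1 to 5 had *Plxnd1* values of -0.734, -0.114, -0.255, 0 and -0.027, HF diet exposed hearts 1 to 5 had 0.23, -0.114, 0.287, -0.076 and 0.308, and diabetes exposed hearts ranged from -0.193 to 0.309 around 0.13. Only combination hearts 1 and 3 were below all diabetes and HF diet exposed hearts. The difference was -0.33 (SE 0.13; limma adjusted p 0.528, exact two-sided permutation p 0.0281) against diabetes and -0.35 (SE 0.14; limma adjusted p 0.369, exact two-sided permutation p 0.0714) against HF diet. Against control it was -0.28 (SE 0.13; limma adjusted p 0.499, exact two-sided permutation p 0.0896), short of the fold limit.

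In combination against diabetes, 1 member was lower and 0 were higher, where 1.4% of all features were lower and 1.65% higher. The *Plxnd1* call there was lost without diabetes heart 2 (-0.32), 4 (-0.29) or 6 (-0.31) and without combination heart 1 (-0.20) or 3 (-0.32), and the count was 5 without diabetes heart 5, combination heart 4 or combination heart 5, 3 without diabetes heart 3, and 2 when combination heart 2 was left out. It was also lost under the methods' t-test, quantile normalization (-0.29) and array weights (-0.25). In combination against HF diet, 3 members were lower and 1 was higher, where 2.92% of all features were lower and 2.83% higher. The 3 were *Plxnd1*, *Nrp2* (-0.39, SE 0.16, limma adjusted p 0.369) and *Sema5a* (-0.40, SE 0.18, limma adjusted p 0.372), and the 1 was *Sema7a*. Without combination heart 1 the differences were -0.23 for *Plxnd1*, -0.23 for *Nrp2* and -0.25 for *Sema5a*, and *Sema7a* alone of the 4 passed. Without HF diet heart 1 or 3, 2 of the 4 passed. *Plxnd1* was also lost without HF diet heart 3 (-0.31) or 5 (-0.31), *Nrp2* without HF diet heart 1 (-0.32), and *Sema5a* without HF diet heart 1 (-0.33), HF diet heart 2 (-0.37) or combination heart 2 (-0.33). Averaging hearts by stem ended the *Plxnd1* (-0.33) and *Sema5a* (-0.46) calls on p, with both differences still beyond the fold limit. All 3 calls ended under the methods' t-test, quantile normalization and array weights. The study's own list of genes lower in combination against HF diet names *Plxnb1* and *Sema6a*. Neither gene is among the members followed here, so these counts do not cover the whole family. That list does not name *Plxnd1*, *Nrp2* or *Sema5a*, and the study's list for combination against diabetes does not name *Plxnd1*.

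These lower values moved with the long-transcript list. In combination against control 7 of its 18 measured genes were lower past the threshold and all 18 had negative differences, with a median of -0.30. Its mean ran from -0.727 to 0.004 in combination exposed hearts, from -0.287 to 0.297 in controls, from -0.358 to 0.246 in diabetes exposed hearts and from -0.064 to 0.233 in HF diet exposed hearts. With that mean as a covariate *Plxnd1* went to -0.06 against diabetes and -0.05 against HF diet, *Nrp2* to -0.15 and *Sema5a* to -0.14 against HF diet, and 0 members passed in both comparisons, whereas *Sema3a* stayed past the threshold against control (0.46). The list itself was lower in the combination group, so this covariate can also take out a difference that comes with the exposure. Whether the list follows RNA or array quality, and what such quality contributed to these differences, was not tested.

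**Figure D2:**
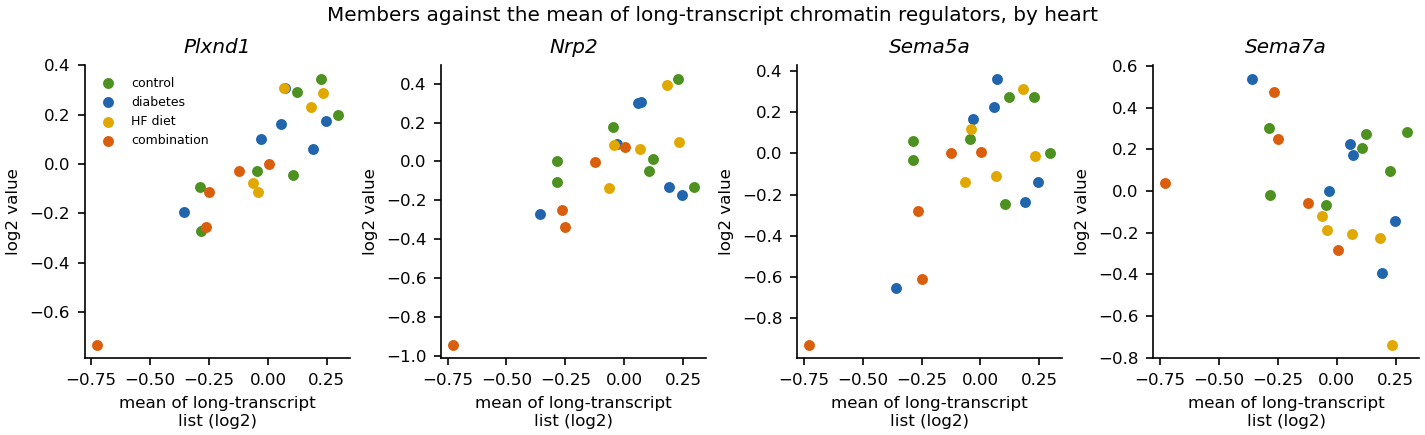
Log2 value of *Plxnd1*, *Nrp2*, *Sema5a* and *Sema7a* (y axes, median of the 23 hearts at 0) against the mean log2 value of 18 chromatin regulators with long transcripts (x axes), 1 point a heart, coloured by exposure. Combination heart 1, at -0.727 on the x axis, holds the lowest value of *Plxnd1* (-0.734), *Nrp2* (-0.945) and *Sema5a* (-0.93), and *Sema7a* is 0.037 there.

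The interaction of the 2 exposures (combination minus diabetes minus HF diet plus control) asks whether the effect of diabetes differed between diets. *Sema6d* (-0.41, SE 0.16) and *Plxnd1* (-0.40, SE 0.18) were negative and *Sema7a* (0.47, SE 0.21) positive past the threshold, each with a limma adjusted p of 0.675. That is 2 of 23 negative and 1 positive, where 2.61% of all features were negative and 1.77% positive. *Sema6d* encodes a transmembrane ligand of plexin A1 with a role in chamber trabeculation. Combination exposed hearts 1 to 5 had *Sema6d* values of -0.7, 0.08, -0.26, -0.114 and -0.104, and HF diet exposed hearts 1 to 5 had 0.203, -0.09, 0.199, 0.01 and -0.102. Diabetes exposed hearts ranged from -0.171 to 0.272 around 0.08, and controls from -0.309 to 0.078 around -0.032. All groups overlapped, and combination heart 1 was the lowest of the 23.

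*Sema6d* had differences from control of 0.15 in diabetes exposed, 0.11 in HF diet exposed and -0.16 in combination exposed hearts, none past the threshold. The *Sema6d* interaction was lost without combination heart 1 (-0.29), under array weights (-0.29) and with the long-transcript mean as a covariate (-0.18). The *Plxnd1* interaction was lost in 13 of 23 fits that left out a heart, with -0.27 without combination heart 1 and -0.34 to -0.40 in the other 12, which left out control heart 2, 3, 5 or 6, diabetes heart 1, 2, 4 or 6, HF diet heart 1, 3 or 5, or combination heart 3. It was also lost with averaged stems (-0.37), with stems as a random block (-0.39), under quantile normalization (-0.32) and under array weights (-0.25). The *Sema7a* interaction was lost without diabetes heart 3 (0.38) or 6 (0.42), HF diet heart 3 (0.36), or combination heart 2 (0.43) or 3 (0.37). Without combination heart 1 or 3, 1 of the 3 passed, and with the long-transcript mean as a covariate 0 did.

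**Figure D3:**
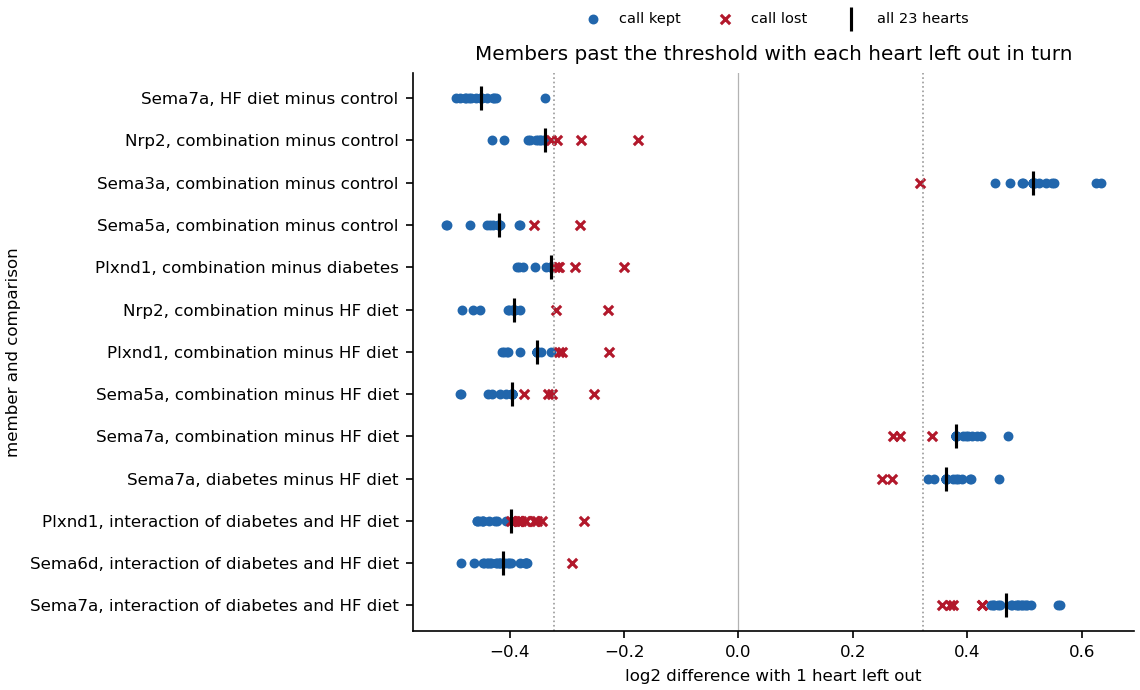
Log2 difference (x axis) of each member past the threshold (y axis, member and comparison) with all 23 hearts (black bar) and with each heart left out in turn. Blue points kept the call, red crosses lost it, and dotted lines are the fold limit (0.32 either way). Leaving out a heart of neither compared group cannot move a pairwise difference. *Sema7a* in HF diet minus control is the one line with no cross, and its values run from -0.49 to -0.34.

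Diabetes alone had no member past the threshold. Of all features 0.229% were higher, 0.0811% were lower and 0.0212% had groups that did not overlap, and of the 23 members 0 met any of these. By the methods' t-test 0 members passed the same threshold, and 1 had an unadjusted p under 0.05, against 0 by limma. Member differences from control ran from -0.16 (*Sema4a*) to 0.20 (*Sema3a*), with a median of 0.01. For *Sema4a* control heart 1 had 0.744, where the control median was -0.048 and the diabetes exposed median -0.028. The *Sema4a* difference without control heart 1 is not given here.

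**Figure D4:**
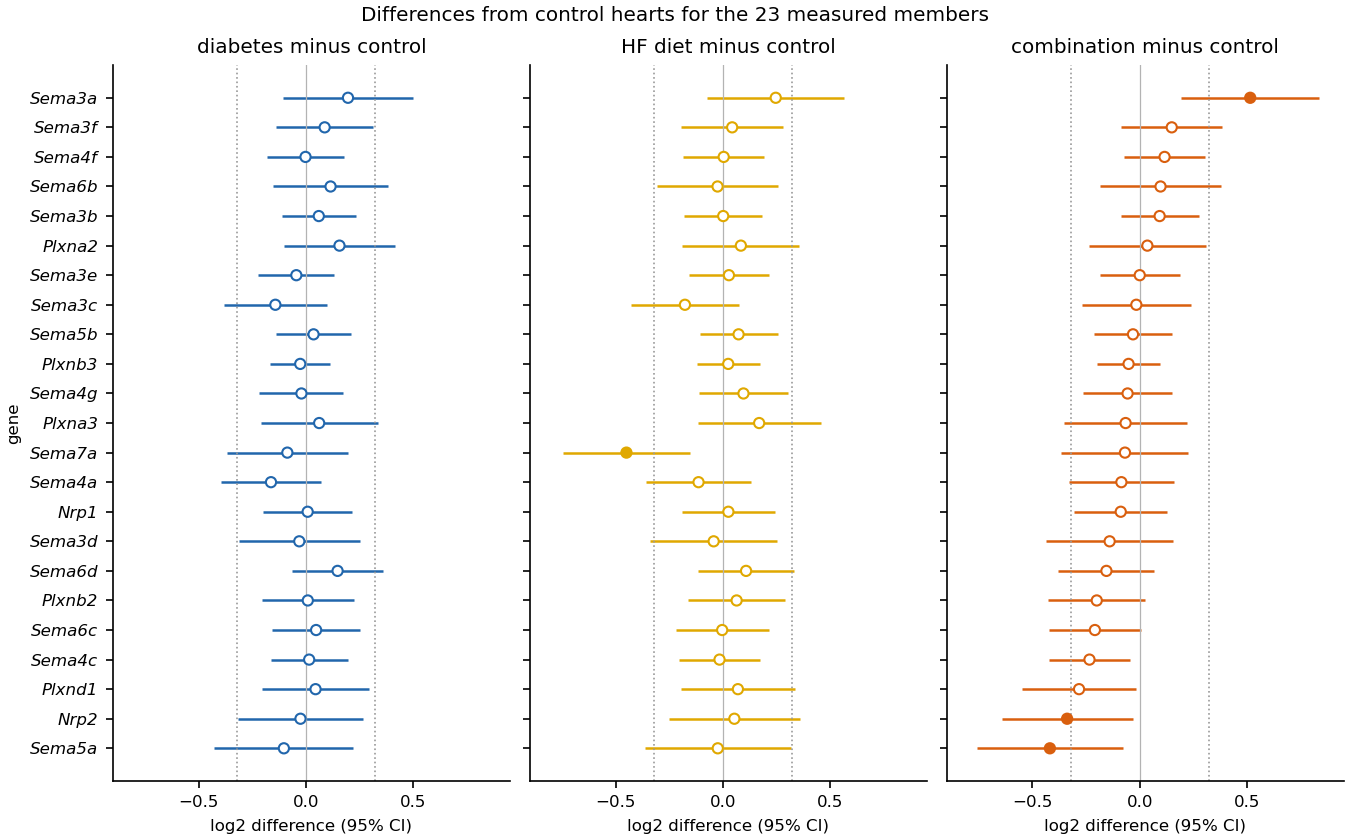
Log2 difference from control hearts (x axes) with its 95% confidence interval for the 23 members (y axis), in diabetes, HF diet and combination exposed hearts. Filled points passed the threshold, dotted lines are the fold limit (0.32 either way), and all 3 panels share the 7 control hearts. No point is filled in the diabetes panel, *Sema7a* is filled in the HF diet panel, and *Sema3a*, *Nrp2* and *Sema5a* in the combination panel.

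Among the other secreted ligands, *Sema3c*, which guides outflow tract septation, had differences of -0.14 (SE 0.12) with diabetes, -0.18 (SE 0.12) with HF diet and -0.02 (SE 0.12) with the combination. *Sema3e*, the direct ligand of plexin D1, had -0.05, 0.03 and 0.00, and *Sema3d*, which patterns pulmonary veins, had -0.03, -0.04 and -0.14. *Sema3b* and *Sema3f* ran from 0.00 to 0.15. None of these 5 passed the threshold. On build GRCr8 *Sema3c*, *Sema3e*, *Sema3a* and *Sema3d* lie in that order on chromosome 4 between 18538452 and 23460971, and *Sema3b* and *Sema3f* lie on chromosome 8 between 117150307 and 117265206. Of the 4 neighbours on chromosome 4 only *Sema3a* passed in any comparison.

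Among the membrane-bound semaphorins, *Sema4c*, a ligand of plexin B2, and *Sema6c* had negative differences between combination exposed and control hearts that did not pass the threshold. *Sema4c* missed on fold, and *Sema6c* on fold and on its limma p. The *Sema4c* difference was -0.23 (SE 0.09; exact two-sided permutation p 0.0253) and that of *Sema6c* -0.21 (SE 0.10; exact two-sided permutation p 0.0253), with limma adjusted p of 0.497 and 0.507. *Sema4c* ran from -0.555 to -0.03 in combination exposed hearts and from -0.079 to 0.252 in controls, and *Sema6c* from -0.533 to 0.011 and from -0.066 to 0.064. Both groups overlapped for each gene. The differences without combination heart 1 were -0.14 for *Sema4c* and -0.13 for *Sema6c*. The *Sema4c* probe sets gave -0.15 and -0.32. *Sema4a*, *Sema4f*, *Sema4g*, *Sema5b* and *Sema6b* ran from -0.16 to 0.12 over the 3 comparisons with control, and none passed. The lowest was *Sema4a* with diabetes, where control heart 1 had 0.744 against a control median of -0.048.

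Among the receptors, *Plxnb2*, the receptor of *Sema4c*, had -0.20 (SE 0.11; exact two-sided permutation p 0.112) with the combination (-0.06 without combination heart 1), 0.01 with diabetes and 0.06 with HF diet. *Plxna2*, which outflow tract cells use, had 0.16, 0.08 and 0.04 with diabetes, HF diet and the combination, *Plxna3* had 0.06, 0.17 and -0.07, and *Plxnb3* stayed between -0.05 and 0.02. *Nrp1*, the co-receptor of *Sema3a* and of VEGF-A, had 0.01 (SE 0.10), 0.03 (SE 0.10) and -0.09 (SE 0.10), with a 95% interval for the combination from -0.31 to 0.13. All 5 plexins had negative differences in combination against HF diet, with a median of -0.24 where the median of all features was -0.01, and 1 of the 5 passed. In the same comparison class 3 semaphorins had 4 positive and 2 negative differences with a median of 0.10, classes 4 to 7 had 4 positive and 6 negative with a median of -0.13, and all 18 long-transcript genes were negative with a median of -0.37. The plexins without combination heart 1 had 3 negative and 2 positive differences with a median of -0.12, and with the long-transcript covariate 3 negative and 2 positive with a median of -0.05, both chosen after the values were seen.

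The spread of the members between hearts was widest in the combination group. Over the 23 members the SD between hearts had a median of 0.237 there, against 0.163 in control, 0.167 in diabetes exposed and 0.155 in HF diet exposed hearts, and it reached 0.53 (*Sema3a*). The mean over all 23 members was -0.344, 0.048, 0.078, -0.016 and -0.038 in combination hearts 1 to 5, against -0.044 to 0.074 in controls. Combination heart 1 was below all controls, and the other 4 were near or within the control range. Over all probe sets the SD within an array was 0.393, 0.309, 0.26, 0.164 and 0.161 in combination hearts 1 to 5. In controls it ran from 0.163 to 0.333. The SD between hearts over all features is not given, so the wider spread is not shown to be particular to the members.

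Ligands and receptors known to bind were compared for joint variation between hearts, after group means were taken out. Of 16 pairs listed 10 were measured. *Sema4c* and *Plxnb2* had Pearson's r of 0.716 (permutation p 0.00529, adjusted over the 10 pairs 0.0264) and Spearman's rho of 0.573 (permutation p 0.009, adjusted 0.09), and *Sema5a* and *Plxnb3* had r of 0.624 (permutation p 0.00393, adjusted 0.0264) and rho of 0.441 (permutation p 0.0484, adjusted 0.165). The other 8 pairs did not pass, with r from -0.472 (*Sema3c* and *Plxnd1*) to 0.267 (*Sema3d* and *Nrp1*). Without the 2 hearts farthest on the ligand axis r was 0.433 and 0.394. Within control hearts r was 0.735 and 0.661, and within diabetes exposed hearts 0.48 and 0.494. Without combination heart 1 r was 0.468 and 0.445 with permutation p adjusted to 0.111 and 0.108, so both calls rest on that heart. Both calls were also lost without diabetes heart 4 or 5, HF diet heart 1 or combination heart 4, and the first without control heart 1 or 3 or diabetes heart 2.

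All 253 pairs of members were then compared, a family chosen after the values were seen. At a permutation p under 0.05 after adjustment over the 253, 21 pairs varied together and 1 in opposition (*Sema3c* and *Sema5b*, r -0.545, rho -0.556). By Spearman's rho 16 pairs passed. Most of the 22 pairs lay among *Nrp2*, *Sema5a*, *Sema6c*, *Sema4c*, *Sema6d*, *Plxnd1*, *Plxnb2* and *Nrp1*. Without combination heart 1, 6 pairs passed, 5 of them among the 22, and 4 of the 22 passed in all 23 fits that left out a heart. Those 4 were *Nrp2* and *Sema5a*, *Nrp2* and *Sema6c*, *Sema5a* and *Sema6c*, and *Plxna2* and *Sema6b*.

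*Nrp2* and *Sema5a* were the closest pair. Their r was 0.868 and rho 0.872, with a permutation p of 1e-05 for r, the smallest that 100000 permutations can give (adjusted 0.00253). It was 0.846 without the 2 hearts farthest from the median on the *Nrp2* axis, 0.563 within control and 0.925 within diabetes exposed hearts, 0.827 without combination heart 1, and 0.807 with the long-transcript mean taken out. *Sema5a* and *Sema6c* had r of 0.845 and rho of 0.816 (permutation p 3e-05 for r, adjusted 0.00379), 0.8 without combination heart 1 and 0.814 with the long-transcript mean taken out. *Plxnd1* and *Sema6d* had 0.783 (permutation p 0.00024, adjusted 0.00822; rho 0.653), which went to 0.658 without combination heart 1 and to 0.394 with the long-transcript mean taken out.

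**Figure D5:**
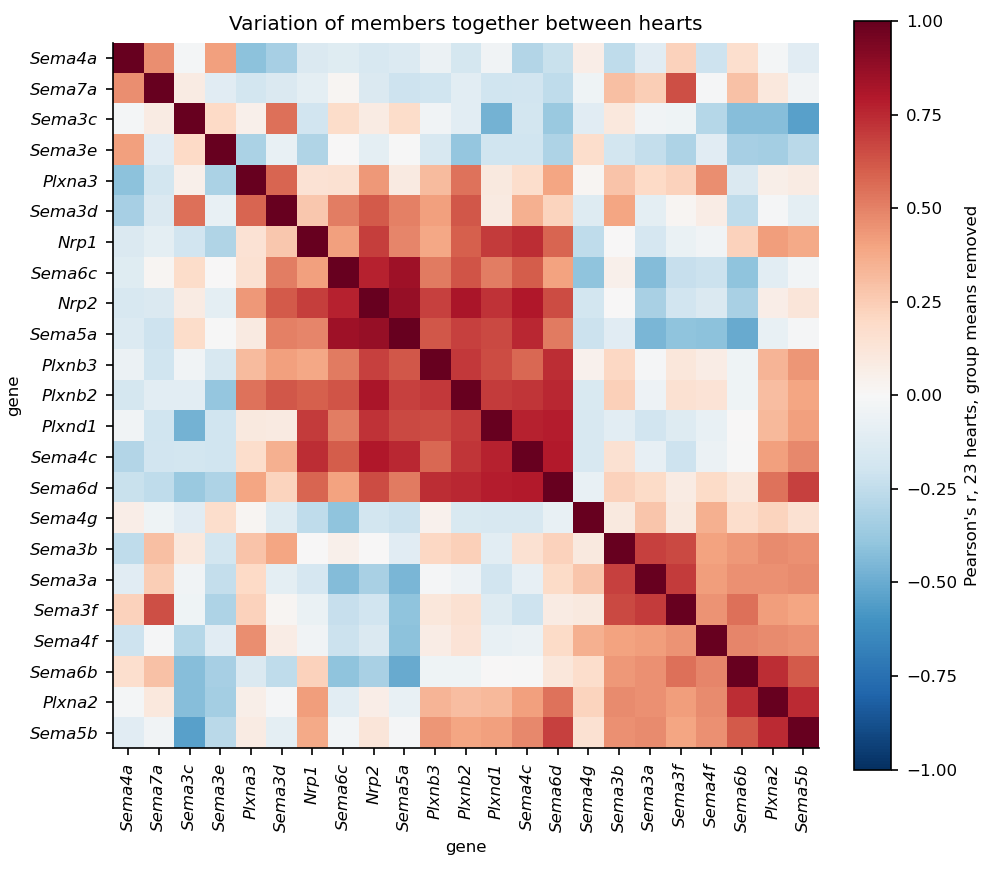
Pearson's r between members (both axes) over 23 hearts with group means removed, ordered by likeness, from blue (negative) to red (positive). A red block joins *Nrp2*, *Sema5a* and *Sema6c* with *Plxnb3*, *Plxnb2*, *Plxnd1*, *Sema4c* and *Sema6d*, and its largest value is 0.868 for *Nrp2* and *Sema5a*.

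Of 51 co-receptors and cytoplasmic effectors of semaphorin signalling outside the family, 48 were measured. Counts here are read against the shares of all features given with each comparison for the members. With HF diet 2 of 48 were higher past the threshold (0.702% of all features) and 0 lower, namely the GTPases *Rnd1* (0.72, SE 0.26) and *Rnd3* (0.33, SE 0.16), which bind plexins or their effectors. With the combination 1 was higher (*Rnd1*, 0.62, SE 0.26; 2.11% of all features) and 0 lower, and with diabetes 0 either way. Against diabetes the combination had 2 lower (1.4% of all features), the plexin B co-receptor *Erbb2* (-0.44, SE 0.12) and the actin oxidase gene *Mical3* (-0.51, SE 0.23). Against HF diet it had 2 lower (2.92% of all features), *Mical3* (-0.60, SE 0.25) and the plexin B exchange factor *Arhgef11* (-0.35, SE 0.11), and 1 higher, *Tyrobp* (0.53, SE 0.20), an adaptor of myeloid cells. In diabetes against HF diet *Rnd3* was lower (-0.36, SE 0.17). In the interaction 1 was positive (*Tyrobp*) and 3 negative (*Arhgap35*, *Arhgef11* and *Erbb2*). Limma adjusted p was 0.369 or more for all of these. Without combination heart 1, 0 of 48 passed in combination against control and 0 against HF diet. The same held with the long-transcript covariate, both settings chosen after the values were seen. The median of the 48 in combination against control was -0.044 with all hearts, -0.007 without combination heart 1 and 0.001 with the covariate.

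Of 37 slit, netrin and ephrin ligands and receptors 30 were measured. With the combination 2 were lower than in control and 0 higher, *Ntn1*, the ligand netrin 1 (-0.47, SE 0.12), and *Efnb3* (-0.36, SE 0.15), where 1.23% of all features were lower. Of the 30 differences 25 were negative, with a median of -0.08, where 14139 of 28366 features and all 18 long-transcript genes were negative. When combination heart 1 was left out, 18 of 30 were negative with a median of -0.03, and with the long-transcript covariate 18 of 30 with a median of -0.02. *Ntn1* was also lower against diabetes (-0.34, SE 0.12) and against HF diet (-0.37, SE 0.12). Against HF diet 0 of 30 passed without combination heart 1 and 0 with the long-transcript covariate. Against control 2 of 30 passed without combination heart 1 and 1 with the covariate. *Slit3* was lower in combination against diabetes (-0.36, SE 0.16). *Ephb3* (-0.34, SE 0.11) and *Slit3* (-0.46, SE 0.22) were negative in the interaction. With diabetes or HF diet alone 0 of 30 passed by limma. Limma adjusted p was 0.369 or more throughout.

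Markers of cells that carry or receive these signals were read in the same comparisons. Of all features, 2.11% were higher and 1.23% lower past the threshold in combination against control, and 2.83% and 2.92% against HF diet. Against diabetes the shares were 1.65% higher and 1.4% lower, and in the interaction 1.77% positive and 2.61% negative. For diabetes against control they were 0.229% higher and 0.0811% lower, and for HF diet against control 0.702% and 0.254%. In combination against control 0 of 11 endothelial, 0 of 12 cardiomyocyte, 0 of 9 fibroblast, 0 of 5 lymphatic endothelial, 0 of 9 smooth muscle and pericyte, 0 of 9 autonomic neuron, 0 of 6 Schwann cell, 0 of 6 epicardial, 0 of 9 macrophage and 0 of 5 platelet markers measured passed, and 1 of 4 endocardial markers did (*Hapln1*, 0.62, SE 0.18). In combination against HF diet, where *Plxnd1*, *Nrp2* and *Sema5a* were lower, 1 of 11 endothelial markers was lower (*Tie1*, -0.37, SE 0.13), 2 of 12 cardiomyocyte markers were lower (*Ryr2*, -0.45, SE 0.20, and *Ttn*, -0.40, SE 0.18) and 1 of 9 macrophage markers was higher (*Lyz2*, 0.90, SE 0.40). In the interaction *Tie1* (-0.37, SE 0.17), *Myh7* (-0.34, SE 0.16), *Col1a1* (-0.40, SE 0.17) and the smooth muscle gene *Myh11* (-0.65, SE 0.23) were negative and *Lyz2* (1.14, SE 0.53) positive. *Lyz2* was also higher in combination against diabetes (0.80, SE 0.38), as was *Hapln1* (0.41, SE 0.19), and *Myh11* was higher with diabetes (0.35, SE 0.15) and with HF diet (0.35, SE 0.16) against control. The mean of the endothelial list ran from -0.194 to 0.142 in combination exposed and from -0.078 to 0.153 in control hearts. That of the fibroblast list ran from -0.28 to -0.011 and from -0.121 to 0.145, and that of the lymphatic list from -0.472 to 0.121 and from -0.118 to 0.355. The autonomic neuron list, the cells that *Sema3a* repels, ran from -0.274 to 0.413 and from -0.321 to 0.413. The part of any of these cells in the members' differences was not tested. Erythroid genes had 2 of 14 higher with the combination (*Ahsp*, 1.38, SE 0.43, and *Hbg1*, 0.84, SE 0.34), 3 of 14 with diabetes and 1 of 14 with HF diet (*Hbe1*, 0.86, SE 0.40) against control, and 3 of 14 higher in combination against HF diet (*Ahsp*, *Rhd* and *Rhag*, 0.61 to 1.22). Thymocyte markers had 1 of 10 lower in each exposure against control (*Cd4*, -0.53 to -0.57), and 9 lung epithelium markers had none, where control heart 1 sets the control mean.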

How the data were processed

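RNA of 23 whole newborn rat hearts was hybridized to Affymetrix Rat Gene 1.0 ST arrays. The authors read the arrays, averaged the probes of each set, normalized and filtered the values in GeneSpring GX, and deposited log2 values of 29170 probe sets, from which the probe set's median across arrays had been subtracted. The sources used here do not give the normalization algorithm, the filter's limits or the log base. The base was settled as 2, since differences of group means in the deposited table match, at that base alone, the fold changes listed with the study. The centring removes each gene's level and signal over background, so no dim probe set was filtered, and the number of arrays limits the precision.

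Probe sets were named from the platform annotation (15310 with 1 symbol, 323 with several, 13537 with none). Probe sets of 1 gene were averaged and all others kept singly, giving 28366 features. No 2 arrays were identical. Group means were estimated in 1 fit of all 23 hearts by limma 3.58.1 (lmFit and eBayes, R 4.3.3), and all comparisons come from that fit, with Benjamini-Hochberg adjustment over the 28366. The fit was tested on simulated data. Single members also had an exact two-sided permutation test. The study's methods used an unpaired t-test with unequal variances, which is an alternative here, as are quantile normalization, array weights, probe sets kept separate, code stems averaged or as a random block, the replicate block, and the erythroid or long-transcript mean as a covariate. Pairs of genes had 100000 permutations of hearts within groups (10000 with a heart left out; Python 3.11.15). Members past the threshold in any comparison, or with no overlap with control, were described heart by heart, and for other lists at most 4 genes a comparison were named, by smallest limma p. Medians of lists and values below the threshold without combination heart 1, or with the long-transcript covariate, were added after seeing the data. Members and lists were chosen with earlier results of these data known. All 23 members matched RefSeq genes of build GRCr8 by Entrez identifier.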

Additional observations from a re-analysis of the deposited data

Results flagged for a closer look

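*Sema7a* in HF diet heart 3 was -0.74, far below the other 4 hearts of its group, of which the nearest was -0.227. The gap was 0.826 of the group's range, past Dixon's 95% limit for 5 hearts. It was the 1 such value among 24 sets (6 members in 4 groups), and chance marks about 1 set in 20.

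The interaction of diabetes and diet in the limma fit was past the same threshold for 3 members, where 2.61% of all features were negative and 1.77% positive. It was -0.3975 for *Plxnd1*, -0.4108 for *Sema6d* and 0.467 for *Sema7a*, each with a limma adjusted p of 0.675. On the control diet the diabetes effect (diabetes minus control) was 0.04 for *Plxnd1*, 0.15 for *Sema6d* and -0.09 for *Sema7a*, and on the HF diet (combination minus HF diet) it was -0.35, -0.26 and 0.38. *Plxnd1* was lost in 13 of 23 fits that left out a heart, and 0 of the 3 remained under array weights or with the long-transcript covariate.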

How the results depend on the processing

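In fits that left out 1 heart, 254 of 299 member calls were kept, 45 were lost and 0 reversed. Under the other alternatives 64 of 114 were kept, 50 were lost and 0 reversed. The causes of the losses were not tested. For a pairwise call, leaving out a heart of neither compared group cannot move the difference and changes only the estimate of its spread. Keeping probe sets separate left the values of every called member as they were, since only *Sema4c* had more than 1. Both totals of kept calls include such fits. Of 3 members in combination minus control, the methods' t-test left 0, array weights 1, the erythroid covariate 0 and the long-transcript covariate 1. Of 1 in combination minus diabetes, the methods' t-test, quantile normalization, array weights and the long-transcript covariate left 0, and averaged stems gave 2. Of 4 in combination minus HF diet, the methods' t-test, array weights and the long-transcript covariate left 0, and quantile normalization and the erythroid covariate 1. Averaged stems gave 3 there, but neither *Plxnd1* nor *Sema5a*, so not all of the 3 were among the 4. Of 1 in diabetes minus HF diet, the methods' t-test, array weights, averaged stems and the erythroid covariate left 0. Of 3 in the interaction, averaged stems and the random block left 2, quantile normalization 1, and array weights and the long-transcript covariate 0. Of 2 ligand and receptor pairs, quantile normalization, averaged stems and the long-transcript covariate left 0. The 253 pairs, with their alternatives chosen after seeing the data, gave 22, and 10 with stems averaged, 15 with quantile normalization and 18 with the long-transcript covariate.

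With each heart left out, the lowest and highest counts were 0 and 0 for diabetes minus control, 1 and 1 for HF diet minus control, 0 and 4 for combination minus control, 0 and 5 for combination minus diabetes, 1 and 5 for combination minus HF diet, 0 and 1 for diabetes minus HF diet, 1 and 4 for the interaction, 0 and 2 for ligand and receptor pairs, and 6 and 30 for all pairs.

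Replicate numbers did not pair the hearts: deviations of hearts with 1 number had a median correlation of -0.083 (31 pairs), against -0.01 for the other 166. With the replicate block, combination minus diabetes had 2 members, the *Sema7a* interaction (0.45) was lost, and no other call was lost.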
